A study of Mus musculus with 4 samples.

Results

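The FGF genes described here are 2 ligands (Fgf2 and Fgf7), 5 receptors (Fgfr1, Fgfr2, Fgfr3, Fgfr4 and Fgfrl1) and 3 Sprouty inhibitors (Spry1, Spry2 and Spry4), chosen by symbol. These 10 genes are part of the 49585 genes listed in the count tables, and all 10 had enough fragments to be among the 15886 genes tested. Stranded mRNA sequencing was done on C2C12, a mouse myoblast line of strain C3H that forms myotubes when serum is lowered. C/EBPβ-overexpressing cells (2 libraries) had been transduced with a retrovirus carrying C/EBPβ, a leucine zipper transcription factor, and empty-vector cells (2 libraries) with the pLXSN retrovirus alone. Both groups were selected for 7 days in G418 at 1200 µg/ml as pools, grown for 2 days, and differentiated for 2 days in 2% horse serum from 90% confluency. No further allele or agent is named for either group.

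Fibroblast growth factors bind receptor tyrosine kinases at the cell surface together with heparan sulphate, and the receptors signal through the docking protein FRS2 and the RAS-ERK kinases. ERK activity in turn induces Sprouty proteins, which dampen the same pathway. In muscle, FGF signals are known for keeping myoblasts proliferating and holding back differentiation, and FGFR1 and FGFR4 are the receptors best known from myogenic cells. FGF7 and its close relative FGF10 are mesenchymal ligands that bind the IIIb splice form of FGFR2, a form usually found on epithelia. Gene counts do not separate the IIIb and IIIc splice forms.

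The promoters of the genes that rose and fell most are shown because C/EBPβ is a DNA-binding factor and because Fgfr3 fell beside muscle genes. Each runs from 250 bases before to 50 bases after the gene start in RefSeq (GRCm38.p6). Fgf7 lies at chr2:126034408-126034707 on the plus strand, Fgfr2 at chr7:130266759-130267058 on the minus strand, and Fgfr3 at chr5:33721474-33721773 on the plus strand. A second Fgfr3 window in the table, chr5:33722056-33722355, held neither motif searched below and is not printed. Capitals mark a motif match.
Fgf7: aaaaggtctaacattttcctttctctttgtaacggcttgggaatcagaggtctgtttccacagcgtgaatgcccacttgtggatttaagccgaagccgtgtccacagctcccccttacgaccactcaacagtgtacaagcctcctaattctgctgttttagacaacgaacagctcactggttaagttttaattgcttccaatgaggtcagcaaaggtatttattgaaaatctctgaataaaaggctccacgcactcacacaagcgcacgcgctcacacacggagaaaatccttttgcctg
Fgfr2: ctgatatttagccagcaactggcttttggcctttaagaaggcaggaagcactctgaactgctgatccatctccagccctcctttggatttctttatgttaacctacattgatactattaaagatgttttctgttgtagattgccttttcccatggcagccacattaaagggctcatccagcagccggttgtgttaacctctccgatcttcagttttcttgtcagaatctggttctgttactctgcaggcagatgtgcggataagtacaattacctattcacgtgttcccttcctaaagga
Fgfr3: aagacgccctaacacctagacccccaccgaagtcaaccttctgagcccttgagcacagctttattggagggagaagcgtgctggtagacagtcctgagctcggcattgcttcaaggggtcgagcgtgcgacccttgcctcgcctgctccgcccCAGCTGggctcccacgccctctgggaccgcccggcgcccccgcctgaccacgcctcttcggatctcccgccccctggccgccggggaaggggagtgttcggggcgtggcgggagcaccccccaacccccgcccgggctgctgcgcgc
The motifs searched on both strands were TTGCNNAA for C/EBP and CAGCTG for the E-box bound by myogenic factors. RefSeq promoters were matched for 8 of the 10 genes, in 9 windows. The C/EBP letters occurred in 0 of these 9 windows, against 10.8% of all 32851 promoter windows in the table. The E-box letters occurred once, in the Fgfr3 window shown, from base 154 to base 159, against 16.3% of all windows. A match is a description of the letters and not a bound site, and windows without a match say nothing about binding elsewhere.

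Cebpb, the gene carried by the virus, had 502 and 442 CPM in overexpressing cells, against 42.7 and 41.3 CPM in empty-vector cells. CPM are a gene's fragments relative to the TMM-scaled size of its library. Libraries held 36461091 to 51537847 assigned fragments. Des, the muscle intermediate filament, averaged 1632 and 3032 CPM in overexpressing and empty-vector cells, and Myod1 144.7 and 217 CPM, so that muscle identity markers were present in both groups. Of defining markers of other cell types, Epcam (epithelia) and Adgre1 (macrophages) had no fragment in any library and Ptprc (blood cells) had at most 1. Other genes of the marker lists were expressed, among them Pdgfra at 85.6 and 11.96 CPM and Lyz2 at 27.3 and 0.11 CPM in overexpressing and empty-vector cells. No label ties the 2 libraries of a group to separate cultures, and p-values therefore rest on a spread that may be technical.

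Of the 10 genes, 4 were higher in C/EBPβ-overexpressing cells (Fgf7, Fgf2, Fgfr2 and Spry2), 3 were lower (Fgfr3, Fgfr4 and Spry1) and 3 did not pass (Fgfr1, Fgfrl1 and Spry4). The threshold was an adjusted p of 0.05 in edgeR's quasi-likelihood test. Of all genes tested, 43.2% passed, 22.3% as higher and 20.9% as lower. The 10 genes had a median log2 fold change of 0.01, as had all genes tested. In CPM the 2 groups did not overlap for 8 of the 10 genes, a state that held for 75.1% of all genes tested. Both ligands were among the higher genes, whereas receptors and Sproutys moved in both directions.

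**Figure D1:**
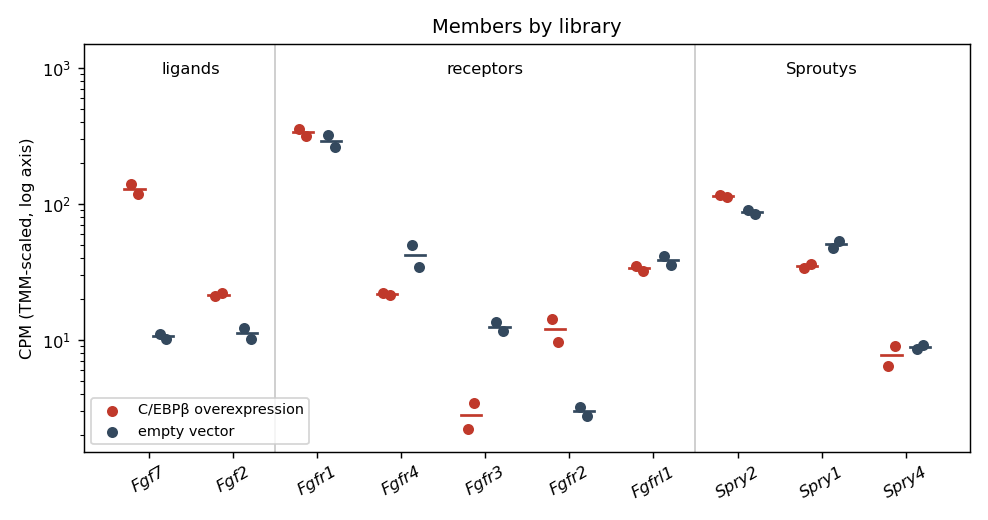
TMM-scaled CPM on a log axis for each gene in the 2 C/EBPβ-overexpressing (red) and 2 empty-vector (dark) libraries, with 1 point for each library and a bar for the group mean. Fgf7 shows the widest gap, with overexpressing libraries at 140.5 and 118 CPM and empty-vector libraries at 11.1 and 10.1 CPM, while the groups interleave for Fgfr1 and Spry4.

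The ligands rose. Fgf7, also called keratinocyte growth factor (ENSMUSG00000027208, chromosome 2, 126034658 to 126091185, plus strand), had 140.5 and 118 CPM in overexpressing cells, against 11.1 and 10.1 CPM in empty-vector cells. Both overexpressing libraries stood far above both controls, a 12.2-fold difference. The log2 fold change was 3.61 (SE 0.11, adjusted p = 9.03e-07, n = 2 each), and 1.97% of all genes tested had a larger absolute change. Over the alternatives tried, its log2 fold change ran from 3.48 to 3.72 and the call held in each.

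Fgf2, basic FGF, the ligand most used to keep myoblasts dividing in culture (ENSMUSG00000037225, chromosome 3, 37348346 to 37410108, plus strand), had 20.8 and 21.96 CPM in overexpressing cells, against 12.1 and 10.1 CPM in empty-vector cells. The groups did not overlap, and the mean was 1.93-fold higher with overexpression (log2 fold change 0.95, SE 0.12, adjusted p = 0.000670). Fgf2 shares exons on its own strand with Gm43439, amounting to 2.99% of its 50-base windows, where fragments may not have been assigned. It overlaps Nudt6 on the opposite strand, which the stranded counting separates.

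Per length, Fgf7 was above Fgf2 in both groups, and by more with overexpression. TPM divides counts by gene length and scales each library to the same total, which allows levels of different genes to be compared. It is not scaled by TMM. For each of the 10 genes the ratio of overexpressing to empty-vector cells was somewhat higher in TPM than in CPM. Fgf7 stood at 139 ± 18.9 TPM in overexpressing cells and 10.6 ± 0.83 TPM in empty-vector cells (mean ± SD, n = 2 each). For Fgf2 the levels were 10.96 ± 0.23 TPM in overexpressing cells and 5.31 ± 0.76 TPM in empty-vector cells. Of the summed TPM of both, Fgf7 made up 93.4% and 91.8% in the overexpressing libraries, against 65.6% and 67.6% in the empty-vector libraries.

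Other FGF genes that were tested fell more often than they rose. Of 20 further FGF genes, listed as other FGF ligands, 6 had enough fragments for the test. Of the 6, 1 passed as higher and 5 as lower, against 22.3% and 20.9% of all genes tested. Of these 6, Fgf11 and Fgf13 are not ligands of FGF receptors. Fgf10 alone rose, to 69.8 and 71.1 CPM in overexpressing cells, against 14.1 and 10.4 CPM in empty-vector cells (log2 fold change 2.52, SE 0.14, adjusted p = 2.93e-05). It is the nearest relative of Fgf7 among these ligands, and both its overexpressing libraries lay above both controls. Fgf22, of the same subfamily, had 1 fragment in each overexpressing library and 0 in each control, and was not tested.

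The 5 that fell were Fgf5, Fgf9, Fgf11, Fgf13 and Fgf21. Fgf21, an endocrine hormone that stressed muscle also makes, averaged 23.4 CPM in overexpressing cells and 75.7 CPM in empty-vector cells (log2 fold change -1.71, SE 0.39, adjusted p = 0.0315). Fgf5, known as a brake on hair growth, had 24 and 21 fragments in overexpressing libraries, against 186 and 225 in controls (log2 fold change -3.07). Fgf11 and Fgf13, which act inside the cell and not through FGF receptors, had log2 fold changes of -0.85 and -4.03. Fgf13 was near the floor, with 5 and 4 fragments in overexpressing libraries, against 73 and 89 in controls. Fgf9, a secreted ligand with 7 to 37 fragments in each library, had -1.42. The median of the 6 was -1.56, against 0.01 over all genes tested. It includes Fgf9 and Fgf13, which had enough fragments in both libraries of the empty-vector group only, where they were higher. The filter thus favoured a fall for these genes. Fgf21 and Fgf11 lost their calls without either control library (adjusted p = 0.1204 and 0.181 for Fgf21, 0.0661 and 0.0676 for Fgf11), and Fgf9 lost its call without empty-vector replicate 2 (0.209) and in DESeq2 (0.140). Without single libraries the log2 fold change ran from -2.33 to -1.27 for Fgf21, from -1.13 to -0.62 for Fgf11 and from -1.77 to -0.91 for Fgf9.

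Among the receptors, Fgfr2 rose, Fgfr3 and Fgfr4 fell, and Fgfr1 did not pass. Fgfr1, the receptor with the highest level in both groups (ENSMUSG00000031565, chromosome 8, 25513654 to 25575718, plus strand), had 353 and 316 CPM in overexpressing cells, against 318 and 261 CPM in empty-vector cells. The groups overlapped. Its log2 fold change was 0.21, with a 95% interval from -0.07 to 0.49 and an adjusted p of 0.200. Without overexpressing replicate 2 it passed as higher (log2 fold change 0.27, adjusted p = 0.0483).

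Fgfr4, a receptor known from developing and regenerating muscle (ENSMUSG00000005320, chromosome 13, 55152640 to 55168759, plus strand), had 21.9 and 21.3 CPM in overexpressing cells, against 49.9 and 34.5 CPM in empty-vector cells. The overexpressing libraries were close together, the controls were 0.53 log2 units apart, and the groups did not overlap. The log2 fold change was -0.96 (SE 0.17, adjusted p = 0.00591, n = 2 each). Leaving out single libraries and changing the settings moved it between -1.20 and -0.68, and the call held in each.

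Fgfr3, a receptor known for restraining bone growth (ENSMUSG00000054252, chromosome 5, 33721674 to 33737068, plus strand), had 114 and 125 fragments in overexpressing libraries, against 597 and 582 in empty-vector libraries. In CPM these were 2.18 and 3.42 with overexpression, against 13.4 and 11.5 with the empty vector. The mean was 4.45-fold higher in empty-vector cells, the groups did not overlap, and the fitted log2 fold change was -2.17 (SE 0.21, adjusted p = 0.000253). It fell more than any other of the 10 genes.

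Muscle markers moved beside these receptors. Of 16 markers of differentiating muscle, 15 fell and Myf5 rose, against 20.9% lower and 22.3% higher of all genes tested. The summed level of the 16 was 7895 and 12592 CPM in overexpressing cells, against 28432 and 30888 CPM in empty-vector cells. Overexpressing replicate 2 was above replicate 1 for this sum and for Fgfr3 (0.65 log2 units), but not for Fgfr4 (-0.04). In bulk RNA, fewer cells of a type and less RNA in each cell cannot be told apart. The part of the muscle markers in the receptor changes was not tested.

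Fgfr2, the receptor of FGF7 and FGF10 in its IIIb form (ENSMUSG00000030849, chromosome 7, 130162451 to 133123350, minus strand), had 747 and 353 fragments in overexpressing libraries, against 143 and 139 in empty-vector libraries. This was 14.3 and 9.65 CPM with overexpression, against 3.21 and 2.75 CPM with the empty vector. Both overexpressing libraries were above both controls, although 0.57 log2 units apart. The difference was 4.02-fold (2.02 on the log2 scale, SE 0.21, adjusted p = 0.000383). The annotated gene extends into Ctbp2, with which it shares exons on the same strand and 2.47% of its 50-base windows, and how many fragments this touches was not tested.

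Fgfrl1, a receptor that binds FGFs but has no kinase domain (ENSMUSG00000008090, chromosome 5, 108692382 to 108706924, plus strand), had 35.03 and 32.0 CPM in overexpressing cells, against 40.9 and 35.6 CPM in empty-vector cells. The groups did not overlap by a narrow margin, but the log2 fold change of -0.19 (95% interval from -0.42 to 0.04) did not pass, with an adjusted p of 0.159. In the authors' deposited table, whose libraries may differ, it passed with a log2 fold change of -0.25 and an adjusted p of 0.0409. The authors' deposited table gave the same direction for all 10 genes and the same call for the other 9, 8 of the 10 passing there in all.

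**Figure D2:**
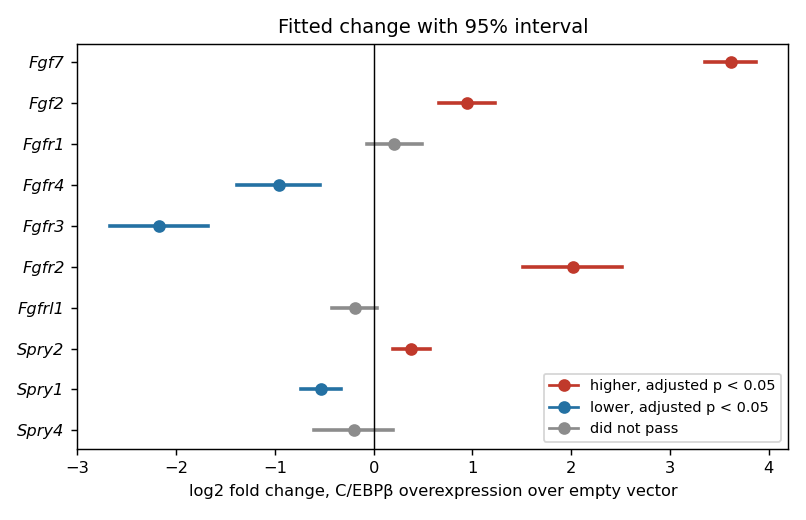
Fitted log2 fold change of overexpressing over empty-vector cells with its 95% interval, red where higher and blue where lower at an adjusted p under 0.05, grey where the gene did not pass. Fgf7 lies at 3.61 and Fgfr3 at -2.17, and the intervals of Fgfr1, Fgfrl1 and Spry4 cross 0.

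The 4 kinase receptors summed to like levels in both groups, with different makeups. Fgfr1 to Fgfr4 together stood at 144 ± 12.7 TPM in overexpressing cells and 140.2 ± 25.7 TPM in empty-vector cells (n = 2 each), a difference smaller than the spread between replicates. Fgfr1 made up 82.0% and 81.1% of that sum in overexpressing libraries, against 66.5% and 69.4% in empty-vector libraries. Fgfr4 made up 14.2% and 15.3% with overexpression, against 29.0% and 25.7% with the empty vector. Fgfr3 made up 0.70% and 1.21% with overexpression, against 3.86% and 4.23% with the empty vector. Fgfr2 moved the other way, with 3.17% and 2.37% in overexpressing libraries, against 0.64% and 0.70% in empty-vector libraries. For each receptor the libraries of the groups did not overlap in share. With 2 libraries in each group, the smallest 2-sided p of an exact permutation test is 0.333, and the shares were not tested. By CPM, which does not weigh length, the difference in the share of Fgfr1 was 6.71 percentage points in place of 13.6, and that of Fgfr4 -6.22 in place of -12.6.

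**Figure D3:**
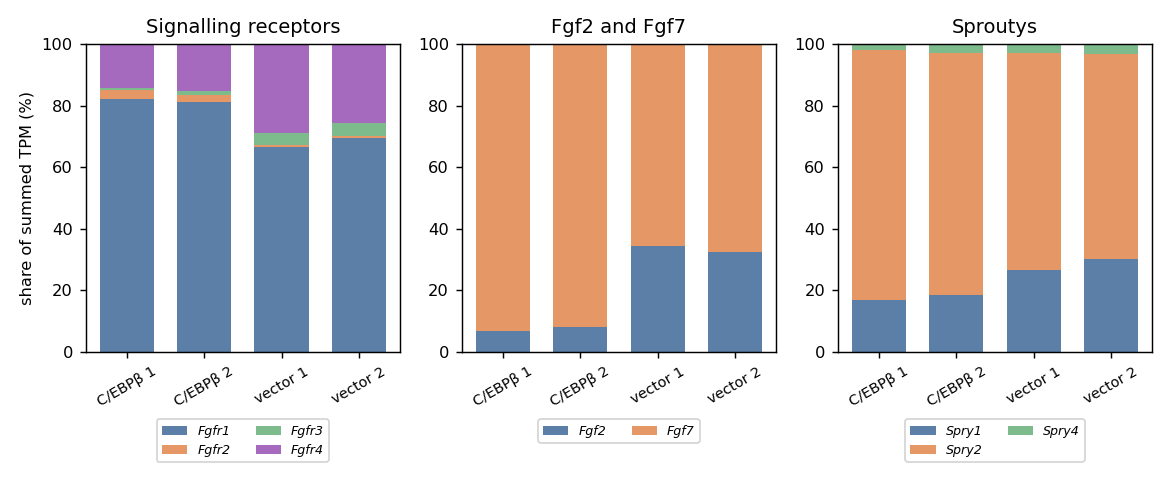
Share of each gene in the summed TPM of the 4 kinase receptors (left), of Fgf2 and Fgf7 (middle) and of the 3 Sproutys (right), 1 bar for each library, with overexpressing libraries on the left of each panel. The Fgfr4 segment covers 14.2% and 15.3% in overexpressing libraries and 29.0% and 25.7% in empty-vector libraries, and the Fgf7 segment 93.4% and 91.8% against 65.6% and 67.6%.

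The Sproutys split. Spry2, an inducible antagonist of receptor tyrosine kinase signalling (ENSMUSG00000022114, chromosome 14, 105891949 to 105896819, minus strand), had 117 and 111 CPM in overexpressing cells, against 90.5 and 84.4 CPM in empty-vector cells. The groups did not overlap, and the fitted log2 fold change was 0.38 (SE 0.08, adjusted p = 0.00614). Without empty-vector replicate 2 the call was lost (adjusted p = 0.0584). Spry1, known for keeping satellite cells quiescent in mouse muscle (ENSMUSG00000037211, chromosome 3, 37639947 to 37644598, plus strand), had 33.8 and 35.9 CPM in overexpressing cells, against 47.6 and 53.3 CPM in empty-vector cells. Both overexpressing libraries were below both controls, and the difference was -0.54 on the log2 scale (SE 0.09, adjusted p = 0.00203).

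Spry4, another inhibitor of the RAS-ERK relay (ENSMUSG00000024427, chromosome 18, 38586268 to 38601268, minus strand), had 6.45 and 9.03 CPM in overexpressing cells, against 8.55 and 9.12 CPM in empty-vector cells. The groups overlapped, and the overexpressing libraries were 0.48 log2 units apart. The log2 fold change was -0.20 (95% interval from -0.60 to 0.20, adjusted p = 0.387). It was 0.03 without overexpressing replicate 1 (adjusted p = 0.938), and -0.47, past the threshold, without replicate 2 (adjusted p = 0.0310). Spry2 made up 81.1% and 78.8% of the summed TPM of the 3 Sproutys in overexpressing libraries, against 70.4% and 66.6% in empty-vector libraries. The sum itself was 238 ± 7.12 TPM with overexpression and 198 ± 4.33 TPM with the empty vector (n = 2 each), a log2 ratio of 0.26 that was 0.09 when CPM were summed in place of TPM.

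The order of the 10 levels differed between groups mainly through Fgf7. In overexpressing cells Spry2 was highest at 190.1 TPM, followed by Fgf7 and Fgfr1 (118 TPM), whose libraries overlapped each other, then by Fgfrl1 and Spry1 at 41.9 and 41.6 TPM, which also overlapped, and by Fgfr4 at 21.2 TPM. Fgf2, Spry4 (5.85 TPM), Fgfr2 (4.04 TPM) and Fgfr3 (1.36 TPM) closed the order. In empty-vector cells Spry2 (136 TPM) was followed by Fgfr1 (95.03 TPM), Spry1 (56.2 TPM), Fgfrl1 (44.6 TPM) and Fgfr4 (38.6 TPM), of which Fgfrl1 and Fgfr4 overlapped. Fgf7 came sixth there, followed by Spry4, Fgfr3 and Fgf2 (6.23, 5.64 and 5.31 TPM). Of these Spry4 overlapped Fgfr3 and Fgfr3 overlapped Fgf2, while Fgf2 lay clear of Fgfr2 at 0.93 TPM.

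Fibroblast markers moved beside the ligands. Of 12 markers of fibroblasts and fibro-adipogenic progenitors, 11 were tested. Of these, 7 rose and 2 fell, against 22.3% higher and 20.9% lower of all genes tested. The summed level of the 12, most of it Col3a1, was 15020 and 14790 CPM in overexpressing cells, against 5334 and 4297 CPM in empty-vector cells. Pdgfra, the receptor that defines fibro-adipogenic progenitors, had 92.1 and 79.1 CPM in overexpressing cells, against 15.5 and 8.42 CPM in empty-vector cells (log2 fold change 2.85, adjusted p = 0.00446). Fbln1, Dpt and Pi16 rose as well, with log2 fold changes of 4.97, 2.33 and 0.87, and Cd34 (-0.66) and Lum (-1.56) fell. Dcn (0.34) and Ly6a (-0.32) did not pass, and for Ly6a both overexpressing libraries were below both controls. Thy1 had 0 fragments in both overexpressing libraries and 3 and 0 in the controls, while Col3a1, the most abundant, averaged 12168 CPM and 3554 CPM in overexpressing and empty-vector cells. Endothelial markers summed to at most 2.14 CPM, and epithelial markers to 1.13 and 1.18 CPM with overexpression against 5.79 and 6.49 CPM with the empty vector. Macrophage and blood markers summed to 44.5 and 41.2 CPM with overexpression, against 8.82 and 7.89 CPM with the empty vector. Lyz2 held most of this sum in overexpressing cells (28.4 and 26.1 CPM), against 0.13 and 0.08 CPM in empty-vector cells, where Cd14 held most (5.39 and 4.75 CPM). Adipocyte markers summed to 3.73 and 2.30 CPM with overexpression, against 0.07 and 0.04 CPM with the empty vector. The Schwann and neural list was carried by Nes and Ncam1, which myoblasts express, at 1699 and 2324 CPM with overexpression against 3472 and 3618 CPM with the empty vector. The part of any of these in the ligand and receptor changes was not tested.

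The genes with profiles most like those of Fgf7 and Fgfr3, which changed most in each direction, were sought by Euclidean distance of centred log2 CPM over the 4 libraries, among the 10373 candidates that averaged 5 CPM or more and code for protein. For Fgf7 they were Nlrc5 (distance 0.12), Cebpb (0.13) and Emb (0.21). For Fgfr3 they were Prkag3 (0.12), a muscle subunit of the kinase AMPK, Itga10 (0.12), an integrin chain, and Pgm5 (0.17), a protein of muscle attachment sites. With 4 libraries in 2 groups such a distance mostly reflects the size of the fold change.

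Co-receptors and heparan sulphate genes, which hold FGFs at the cell surface, changed in both directions. Of 28 listed, 24 were tested, 10 rose and 7 fell, with a median log2 fold change of 0.12. In all 17 of 24 passed, against 43.2% of all genes tested. Sdc3, a syndecan of muscle progenitors, had 138 and 105 CPM in overexpressing cells, against 58.5 and 42.1 CPM in empty-vector cells (log2 fold change 1.27, adjusted p = 0.00719). The glypican Gpc6 and the FGF binding protein Fgfbp3 also rose, with log2 fold changes of 1.14 and 0.99. Fgfbp1, a carrier that frees FGFs from the matrix, fell to 26 and 56 fragments in overexpressing libraries, against 626 and 674 in controls (log2 fold change -3.84, SE 0.41, adjusted p = 0.00150). Flrt1 and Flrt2, membrane proteins known to associate with FGF receptors, had log2 fold changes of -1.18 and -1.08. Flrt3, of the same family, rose at a low level, with 39 and 31 fragments in overexpressing libraries, against 3 and 5 in controls (log2 fold change 3.20, SE 0.41, adjusted p = 0.000625). Flrt3 had enough fragments for the test in both libraries of the overexpressing group only, where it was higher. For Hs6st2, among the 7 that fell, this held for the empty-vector group only. The filter thus favoured the direction of both genes. Without empty-vector replicate 2 the counts were 4 higher and 4 lower, and Fgfbp3 (adjusted p = 0.0866) and Flrt1 (0.0593) lost their calls. Klb and Kl, the co-receptors of endocrine FGFs such as FGF21, had 0 to 4 fragments in each library and were not tested.

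Of 23 genes of the adaptors and the RAS-ERK relay, all tested, 7 rose and 7 fell, with a median of -0.15. Thus 14 of 23 passed, against 43.2% of all genes tested. Adaptors were among those that rose: Shc1 (log2 fold change 0.73, SE 0.09), Gab1 (0.57) and Frs3 (0.65), as well as the main docking protein Frs2 (0.38, adjusted p = 0.00487). Hras, a RAS GTPase, fell. It had 42.0 and 48.0 CPM in overexpressing cells, against 83.0 and 86.0 CPM in empty-vector cells (log2 fold change -0.91, adjusted p = 0.000160), while Nras, of the same family, had -0.46. The adaptor Grb2 fell too (-0.45). Frs3 lost its call in 3 of the 4 fits that left out a library (adjusted p = 0.0819 to 0.129). The number of lower genes was 4 without either control library.

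Other feedback inhibitors showed no common direction either. Of 15 listed, 14 were tested, 3 rose and 3 fell, with a median of -0.06. Passing genes numbered 6 of 14, like the 43.2% of all genes tested. The untested gene, Spry3, was not among the genes counted. Errfi1, an inhibitor of EGF receptors, had 129.5 and 104 CPM in overexpressing cells, against 74.4 and 61.0 CPM in empty-vector cells (log2 fold change 0.79, adjusted p = 0.00446). The ERK phosphatase Dusp7 (0.55) and the Sprouty relative Spred1 (0.37) also rose. Dusp9 (-0.95) and Dusp5 (-0.77), phosphatases of ERK, and Il17rd (-0.67), a membrane inhibitor of FGF receptors, fell. Dusp6, the phosphatase most used as a readout of FGF signalling, had 21.2 and 29.9 CPM in overexpressing cells, against 32.7 and 39.3 CPM in empty-vector cells. It missed the threshold at a log2 fold change of -0.50 (adjusted p = 0.0667). In the authors' deposited table, whose libraries may differ, Dusp6 passed as lower (log2 fold change -0.56, adjusted p = 0.00135). It did pass as lower in DESeq2 (adjusted p = 0.0239), in limma-voom (0.0308), without robust estimation (0.0453), without the low-count filter (8.02e-06) and without overexpressing replicate 2 (1.14e-07). Without overexpressing replicate 2 there were 6 lower genes. Dusp7 (0.0803) and Dusp9 (0.129) lost their calls without empty-vector replicate 2.

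Of 22 ERK-responsive transcription factors and targets, 21 were tested, 6 rose and 4 fell, with a median of 0.16. These 10 of 21 stand against 43.2% of all genes tested, a like share. The AP-1 subunits Fosl2 and Fosl1 rose, Fosl2 to 250.7 and 223 CPM in overexpressing cells, against 134.5 and 121 CPM in empty-vector cells (log2 fold change 0.89, adjusted p = 0.000355). The immediate-early genes Egr3 and Egr1 fell, Egr3 to 6.68 and 8.07 CPM in overexpressing cells, against 20.2 and 17.8 CPM in empty-vector cells (log2 fold change -1.37, adjusted p = 0.000195). Fos fell as well (-0.61, adjusted p = 0.0282). The FGF-responsive ETS factors split: Etv1 and Etv5 rose, with log2 fold changes of 0.74 and 0.47, and Etv4 fell (-0.46). Etv4 lost its call without overexpressing replicate 1 (adjusted p = 0.0772) and without either control (0.0727 and 0.0612), Etv5 without empty-vector replicate 2 (0.0519) and Fosl1 without empty-vector replicate 1 (0.0575). Fos lost its call with library sizes alone (0.0501), without overexpressing replicate 2 (0.0556) and without either control (0.173 and 0.0623). The number of lower genes was 2 without either control.

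**Figure D4:**
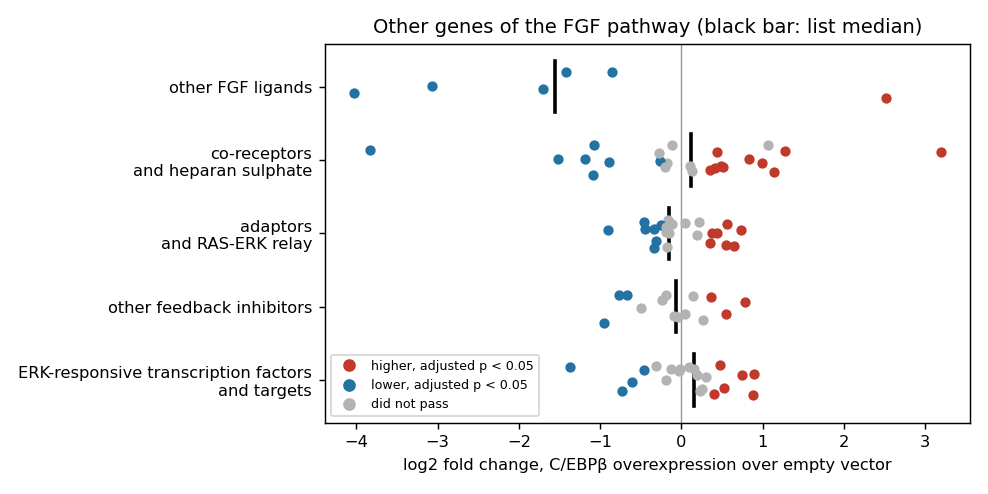
Log2 fold change of overexpressing over empty-vector cells for each tested gene of the 5 lists, 1 point for each gene, red where higher and blue where lower at an adjusted p under 0.05, grey where it did not pass, with a black bar at the list median. The medians lie between -0.15 and 0.16 except for the other FGF ligands at -1.56, of which Fgf10 alone lies above 0. In that list Fgf9 and Fgf13 met the minimum count in both libraries of the empty-vector group only.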

How the data were processed

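For each library the authors deposited unnormalised counts of fragments by gene. The submitters' processing notes name HISAT2 2.0.4, GRCm38 and featureCounts 1.4.6, while per the file headers featureCounts was version 1.5.1, run on paired fragments and the reverse strand with GENCODE M12. By default featureCounts drops fragments with several mapping sites or several overlapping genes. The authors' deposited table of their own comparison gives, by gene, the mean normalised signal, the log2 fold change and its error, the test score, and the raw and adjusted p-value. The libraries behind it are not given in the sources used here. Its log2 fold changes are positive for Cebpb, so they run as overexpressing over empty vector. The submitters' processing notes also name DESeq2.

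From the counts, genes passing filterByExpr (minimum count 10, minimum total 15) were scaled by TMM and compared with edgeR 4.0.16 in R 4.3.3 (glmQLFit with robust estimation, glmQLFTest, 2-sided), with Benjamini-Hochberg adjustment over all 15886 genes tested. Standard errors came from the F statistic, and intervals are at 95%. TPM used the gene length in the count files. Replicates were not copies of each other (chi-square per degree of freedom 28.5 within overexpressing and 20.0 within empty-vector libraries). Alternatives were median-ratio size factors, library sizes alone, 2 other filters, DESeq2 1.42.0, limma-voom 3.58.1, no robust estimation, a replicate block and leaving out each library. The distance between profiles used log2 of CPM plus 0.1. Sequence sharing was measured as the percent of a gene's transcript windows, 50 bases each, that also occur in another gene (GENCODE M21).

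The 10 genes and the 5 pathway and 7 marker lists were chosen with earlier results of these data known. Beside the 10 genes and Cebpb, the text names, from each pathway list, up to 3 called genes with the largest change in each direction and a mean of at least 1 CPM (28 genes). It also names the nearest profiles. Fgf9, Fgf13, Dusp6, Etv4, Etv5, Frs2, Flrt3 and Hs6st2, the markers named, and the untested Fgf22, Klb and Kl, were named after their values were seen. Spry3 was not analysed here.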

Additional observations from a re-analysis of the deposited data

How the results depend on the processing

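Among the 10 genes, Fgf7, Fgf2, Fgfr2, Fgfr3, Fgfr4 and Spry1 kept direction and call under all 12 alternatives, as Fgfrl1 kept its direction and missed the threshold (adjusted p from 0.0713 to 0.599). With 1 library left out in turn, where the lone library of a group is taken to vary like the others, 3 to 5 of the 10 were higher and 3 to 4 lower, and the log2 fold change of gene Spry4 was 0.0263 without overexpressing replicate 1 and -0.469 without overexpressing replicate 2. The same fits gave 2 to 5 lower among the other ligands, 4 to 11 higher and 4 to 6 lower among co-receptors, 4 to 7 lower in the RAS-ERK relay, 2 to 6 lower among feedback inhibitors and 2 to 4 lower among ERK-responsive genes, and 3907 to 7377 of all genes passed. The lowest count was without empty-vector replicate 2 and the highest without overexpressing replicate 2, and the cause was not tested. Feedback inhibitors that were lower numbered 5 without the low-count filter and 5 with the replicate block.

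Nothing in the labels ties libraries of equal replicate number together. With the replicate block 7677 genes passed, in place of 6864, and of 47 genes fitted by name 46 kept their call and direction while Dusp6 passed (adjusted p = 0.00129). Deviations of same-numbered libraries correlated at 0.19 across genes.

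The log2 ratio of the summed receptors was 0.04 and ran from -0.13 to 0.24 without single libraries, being -0.05 without overexpressing replicate 1. In CPM in place of TPM, the share differences were 6.71 percentage points for Fgfr1 and -6.22 for Fgfr4. The log2 ratios were 2.80 for the ligands (3.24 in TPM) and 0.0939 for the Sproutys (0.26 in TPM). Genes of different length are then weighed differently, and TPM and TMM also scale the libraries differently. Spry2 alone averaged 190.1 TPM and 114 CPM in overexpressing cells, against 136 TPM and 87.5 CPM in empty-vector cells, a larger ratio in TPM. With no filter on low counts, Fgf21 missed the threshold (adjusted p = 0.223). At a mean of at least 1 CPM, the nearest profiles of Fgfr3 were the same 3 genes and those of Fgf7 kept 2 of 3. The intervals of Fgfr1, Fgfrl1 and Spry4 include 0, and a difference was not detectable there with 2 libraries in each group.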
